A study of Rattus norvegicus with 8 samples.

Results

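The 10 genes described here encode DARPP-32 and the striatal cAMP cascade around it: *Ppp1r1b*, *Adcy5*, *Gnal*, *Gng7*, *Gnb1*, *Prkaca*, *Prkacb*, *Prkar1b*, *Prkar2b* and *Ppp1ca*. They were taken by name from a table of 17337 genes, and all 10 were among the 12014 genes with enough reads to be tested. Messenger RNA was sequenced from the striatum of 8 male wild-type Sprague-Dawley rats, and the age of the rats is not given in the sources used here. In the METH group, 4 rats pressed a lever for intravenous methamphetamine (METH) at 0.05 mg/kg per infusion, in 2 h sessions over 16 days, with 1 lever press per infusion. In the saline group, 4 rats went through the same catheter surgery and sessions with saline. Rats were chosen, 4 per group, for stable lever pressing over the last days. More rats had begun on METH than on saline, so the chosen METH rats were a smaller share of their group. Rats were anaesthetised with ketamine and xylazine before the tissue was taken. The comparison asks whether the RNA of the cascade differs between rats that took METH and rats that took saline.

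In projection neurons of the striatum, the dopamine D1 receptor and the adenosine receptor of *Adora2a* act on adenylyl cyclase through Golf, a G protein with the alpha subunit encoded by *Gnal*, a gamma subunit encoded by *Gng7* and a beta subunit such as that encoded by *Gnb1*. Adenylyl cyclase 5, from *Adcy5*, makes cAMP, which releases the catalytic subunits of protein kinase A (*Prkaca*, *Prkacb*) from its regulatory subunits (*Prkar1b*, *Prkar2b*). Protein kinase A turns DARPP-32, the product of *Ppp1r1b*, into an inhibitor of protein phosphatase 1, one catalytic subunit of which comes from *Ppp1ca*. These steps act on proteins, and the libraries measured only RNA.

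Each library held between 18135939 and 21211920 counted reads. Values are CPM, read counts scaled to the size of each library, after TMM normalization, which corrects for differences in library composition. A gene was called when edgeR's quasi-likelihood test gave a Benjamini-Hochberg adjusted p (FDR) below 0.05 and its mean log2 CPM was above 1. By that rule 62 of 12014 genes were called (0.516%), 54 of them higher in METH rats (0.449%) and 8 lower (0.0666%). On the first principal component, which held 26.4% of the variance, saline rats lay at -24.6 to -4.17 and METH rats 1, 2 and 4 at 0.257 to 5.29. METH rat 3 stood apart from the other rats, at 39.5. It also had the fewest genes with reads (13142, against 13333 to 13410 in the other 7) and the lowest TMM factor (0.956, against 0.991 to 1.018). As a check of the labelled tissue, all 11 markers of striatal projection neurons were detected, and their summed CPM was 8239 to 9271 in saline rats and 8751 to 9833 in METH rats. Markers of cortical excitatory neurons summed to 97.1 CPM in saline rat 1 and to 11.1 to 25.5 CPM in the other 7 rats. All 5 microglial markers were lower in the mean of METH rats (median log2 fold change -0.22), with *Cx3cr1* called. So were all 4 endothelial markers (median -0.20), with none called and *Tek* alone of the 4 not overlapping between groups, beside 6.39% of all genes. The summed CPM overlapped for both lists. Microglial sums were 229 to 269 in saline rats and 187 to 233 in METH rats. Endothelial sums were 369 to 536 in saline rats, with saline rat 2 the highest, and 370 to 397 in METH rats. Whether these marker levels take part in the cascade values was not tested.

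No gene of the cascade was called, by edgeR, DESeq2 or limma-voom. In METH rats *Ppp1r1b* and *Ppp1ca* had the highest means relative to saline, by 1.19-fold and 1.14-fold, and *Prkacb* had the lowest. Both of the higher genes had an unadjusted p below 0.05 in edgeR's quasi-likelihood test, a share of 2 of 10 beside 11.1% of all genes tested (1338 of 12014). Group means were higher in METH rats for 5 genes and lower for 5, and the median log2 fold change was -0.0049, against -0.0055 over all genes tested. The groups did not overlap for 1 of the 10 genes, *Ppp1ca*, beside 6.39% of all genes tested (3.75% with METH rats higher and 2.65% with METH rats lower). In bulk tissue, fewer cells of a type and less RNA per cell cannot be told apart.

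**Figure D1:**
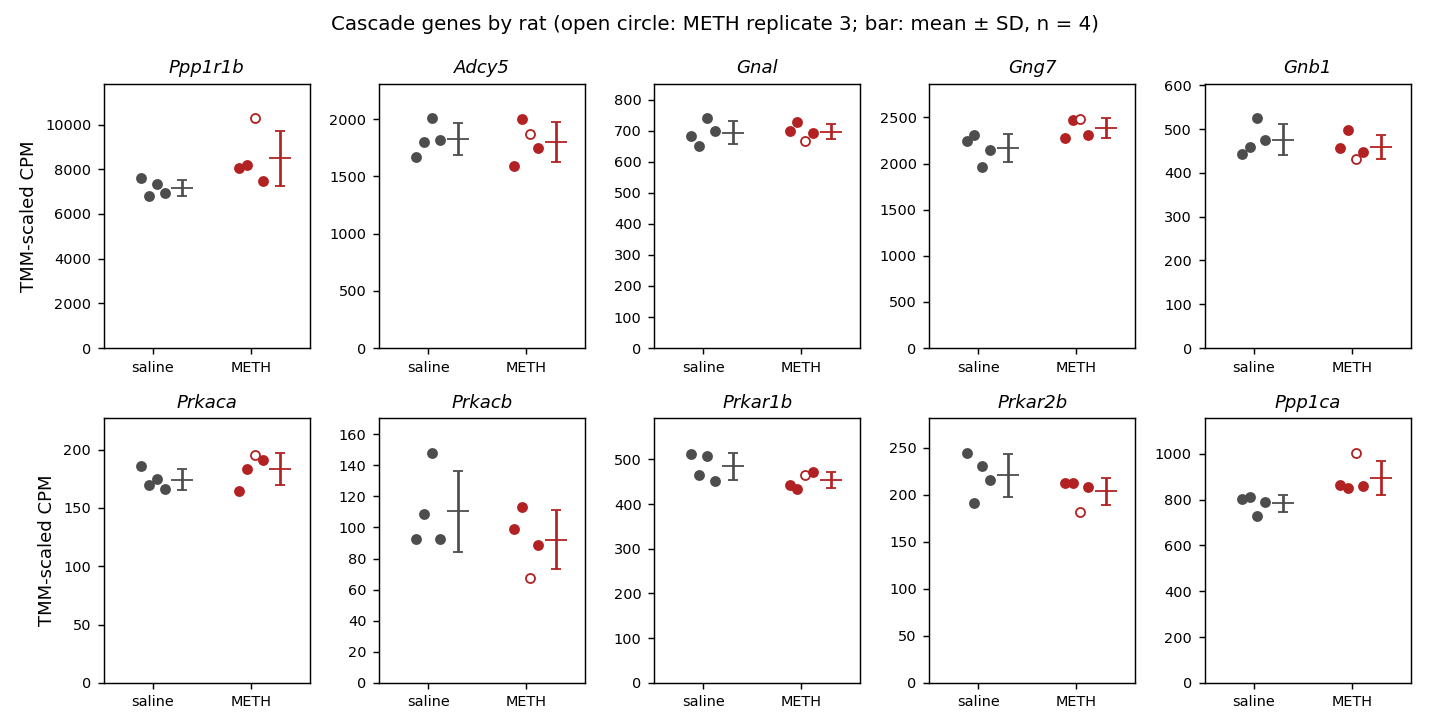
CPM after TMM scaling of each of the 10 cascade genes (vertical axes, each starting at 0) in the 4 saline rats (grey) and 4 METH rats (red), with the mean and SD beside the points and METH rat 3 as an open circle. The groups separate for *Ppp1ca* alone (728 to 813 CPM in saline rats, 851 to 1004 CPM in METH rats), and METH rat 3 has the highest *Ppp1r1b* value, 10288 CPM.

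*Ppp1r1b* encodes DARPP-32, the phosphoprotein on which the cascade converges. It was among the most abundant transcripts of these libraries by reads: it ranked 1 or 2 of all genes in each of the 8 rats, trading places with the myelin gene *Mbp*, and took 0.686% to 0.763% of reads in saline rats and 0.748% to 0.984% in METH rats. Its level was 7594, 6785, 7343 and 6956 CPM in saline rats 1 to 4 and 8062, 8190, 10288 and 7456 CPM in METH rats 1 to 4. The value of METH rat 3 was far above the rest, and METH rat 4 lay below saline rat 1, so the groups overlapped. The mean was 7169 ± 367 CPM in saline rats and 8499 ± 1235 CPM in METH rats (SD, n = 4 each). On the log2 scale METH rats were 0.25 above saline rats (SE 0.09, 95% interval 0.05 to 0.44, edgeR quasi-likelihood FDR 0.328), and the two-sided exact permutation test over 70 labellings gave p = 0.0571. By unadjusted p the gene ranked 588 of 12014. Without METH rat 3 the METH mean was 7902 ± 392 CPM (n = 3) and the log2 fold change was 0.14 (edgeR quasi-likelihood FDR 0.633). Relative to the summed projection neuron markers in place of the whole library, it was 0.16 (edgeR quasi-likelihood FDR 0.463).

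*Ppp1ca* encodes the alpha catalytic subunit of protein phosphatase 1, the enzyme that phosphorylated DARPP-32 inhibits. Its level was 802, 813, 728 and 790 CPM in saline rats 1 to 4 and 865, 851, 1004 and 860 CPM in METH rats 1 to 4. Every METH rat was above every saline rat, with METH rat 3 the highest and saline rat 3 the lowest. The mean was 783 ± 37.9 CPM in saline rats and 895 ± 72.8 CPM in METH rats (SD, n = 4 each). This was a log2 fold change of 0.19 (SE 0.07, 95% interval 0.03 to 0.35, edgeR quasi-likelihood FDR 0.367). The two-sided exact permutation test gave p = 0.0286, the smallest value that 4 rats against 4 allow. Without METH rat 3 the METH mean was 859 ± 7.35 CPM (n = 3) and the log2 fold change was 0.13 (edgeR quasi-likelihood FDR 0.682). Leaving out a rat cannot make separate groups overlap, so that fit does not test the separation.

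The other catalytic subunits of the phosphatase had values closer to those of saline rats, and neither was called. *Ppp1cb* had 327 ± 2.23 CPM in saline rats and 316 ± 44.9 CPM in METH rats (log2 fold change -0.05, 95% interval -0.25 to 0.15). *Ppp1cc* had 439 ± 5.77 and 451 ± 16.2 CPM (0.04, 95% interval -0.10 to 0.18). The log2 ratio of *Ppp1ca* to *Ppp1cb* reads, taken within each rat and so free of library scaling, was 1.26 ± 0.08 in saline rats and 1.51 ± 0.31 in METH rats, with METH rat 3 at 1.97. The groups overlapped and the difference of 0.25 had p = 0.114 in a two-sided exact permutation test, and it was 0.10 without METH rat 3. Of the 10 tested genes on a list of other phosphatase 1 subunits and regulators, none was called and none had an unadjusted p below 0.05 in edgeR's quasi-likelihood test, beside 11.1% of all genes. The lowest p there belonged to *Ppp1r1a*, inhibitor 1 of the phosphatase (362 ± 24.1 and 427 ± 80.7 CPM, log2 fold change 0.24), and to *Ppp1r9a*, neurabin (149 ± 42.1 and 116 ± 33.3 CPM, log2 fold change -0.37). METH rat 3, at 547 CPM, was above the other METH rats for *Ppp1r1a* (372 to 403 CPM), and the log2 fold change was 0.10 without it. That of *Ppp1r9a* was -0.18 without saline rat 3 and -0.21 without METH rat 3. *Ppp1r9b*, the spine scaffold spinophilin, had 2100 ± 223 and 2240 ± 185 CPM (0.09, 95% interval -0.09 to 0.28).

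Upstream, *Gnal* encodes the alpha subunit of Golf, which in striatal projection neurons takes the place of the widespread Gs alpha subunit. Its level was 682, 651, 740 and 698 CPM in saline rats 1 to 4 and 700, 727, 666 and 694 CPM in METH rats 1 to 4. All 4 METH values lay within the range of the saline rats. The fitted log2 fold change was 0.01 (SE 0.07, 95% interval -0.14 to 0.15), and its sign turned with the scaling: it was -0.028 with total counts, -0.012 relative to *Actb* and -0.072 relative to projection neuron markers. *Gnas*, the gene of the Gs alpha subunit, had 534 ± 48.3 and 497 ± 43.9 CPM (-0.10, 95% interval -0.29 to 0.08). The log2 ratio of *Gnal* to *Gnas* reads was 0.38 ± 0.20 in saline rats and 0.49 ± 0.16 in METH rats, and the groups overlapped (difference 0.11, two-sided exact permutation p = 0.400). *Ric8b*, a chaperone of Golf alpha, had 65.4 ± 7.57 and 61.1 ± 6.65 CPM (-0.10, 95% interval -0.32 to 0.12).

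*Gng7* encodes the gamma subunit that partners with Golf alpha in the striatum. Its level was 2248, 2314, 1963 and 2148 CPM in saline rats 1 to 4 and 2280, 2475, 2479 and 2309 CPM in METH rats 1 to 4. METH rats 2 and 3 were above all saline rats, while METH rats 1 and 4 lay below saline rat 2. The means, 2168 ± 153 and 2386 ± 106 CPM (SD, n = 4 each), gave a log2 fold change of 0.14 (SE 0.07, 95% interval -0.01 to 0.29, edgeR quasi-likelihood FDR 0.469).

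*Gnb1* encodes a beta subunit that many G proteins share. Its level was 443, 460, 525 and 474 CPM in saline rats 1 to 4 and 457, 498, 433 and 448 CPM in METH rats 1 to 4. Saline rat 3 was the highest and METH rat 3 the lowest, and the other 6 rats were mixed. Its log2 fold change was -0.05 (SE 0.08, 95% interval -0.21 to 0.11, edgeR quasi-likelihood FDR 0.827). The log2 ratio of *Gng7* to *Gnb1* reads was 2.19 ± 0.20 in saline rats and 2.38 ± 0.10 in METH rats (difference 0.19, two-sided exact permutation p = 0.171). Saline rat 3, at 1.90, and METH rat 3, at 2.52, were the ends of that range.

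Among 18 other tested G protein subunits and their chaperones, none was called and 2 had an unadjusted p below 0.05 in edgeR's quasi-likelihood test, beside 11.1% of all genes. They were *Gnai1*, an inhibitory alpha subunit (111 ± 12.3 and 90.0 ± 14.3 CPM, log2 fold change -0.30, FDR 0.373, and -0.20 without METH rat 3), and *Gng3*, a neuronal gamma subunit (121 ± 15.9 and 143 ± 12 CPM, log2 fold change 0.24, FDR 0.398). The median of the list was -0.04, with 12 of the 18 lower in the mean. Of 10 receptors that feed the cascade, none was called. *Drd2*, the dopamine D2 receptor, which lowers cAMP, had 446 ± 19.3 and 509 ± 51.9 CPM, a log2 fold change of 0.19 (edgeR quasi-likelihood FDR 0.421). The next lowest p in that list was that of *Chrm4*, a muscarinic receptor that also lowers cAMP (log2 fold change 0.10, and 0.03 without METH rat 3). *Drd1*, the dopamine D1 receptor, which raises cAMP, had a log2 fold change of -0.03 (95% interval -0.19 to 0.12), and *Adora2a* of -0.01 (95% interval -0.19 to 0.17). Over the 10 receptors the values ran from -0.24 (*Oprm1*, an opioid receptor that lowers cAMP) to 0.19, with 7 lower in the mean.

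*Adcy5* encodes the main adenylyl cyclase of the striatum. Its level was 1667, 1801, 2008 and 1818 CPM in saline rats 1 to 4 and 1589, 1999, 1871 and 1748 CPM in METH rats 1 to 4. The lowest value was that of METH rat 1 and the highest that of saline rat 3, and the groups overlapped over most of their range. The means were 1824 ± 140 and 1801 ± 175 CPM (SD, n = 4 each), a log2 fold change of -0.02 (SE 0.08, 95% interval -0.19 to 0.16, edgeR quasi-likelihood FDR 0.960). The log2 ratio of *Adcy5* to *Gnal* reads was 1.39 ± 0.08 in saline rats and 1.37 ± 0.14 in METH rats (difference -0.03, two-sided exact permutation p = 0.771). Of 8 other adenylyl cyclases tested, none was called. *Adcy4* had 5.80 ± 1.08 and 4.14 ± 0.58 CPM (log2 fold change -0.49). The soluble cyclase *Adcy10*, at 0.95 ± 0.14 and 1.56 ± 0.30 CPM, did not overlap between groups (log2 fold change 0.71, edgeR quasi-likelihood FDR 0.461) but had a mean log2 CPM below the minimum for a call. It was the only gene of the 8 without overlap, beside 6.39% of all genes.

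**Figure D2:**
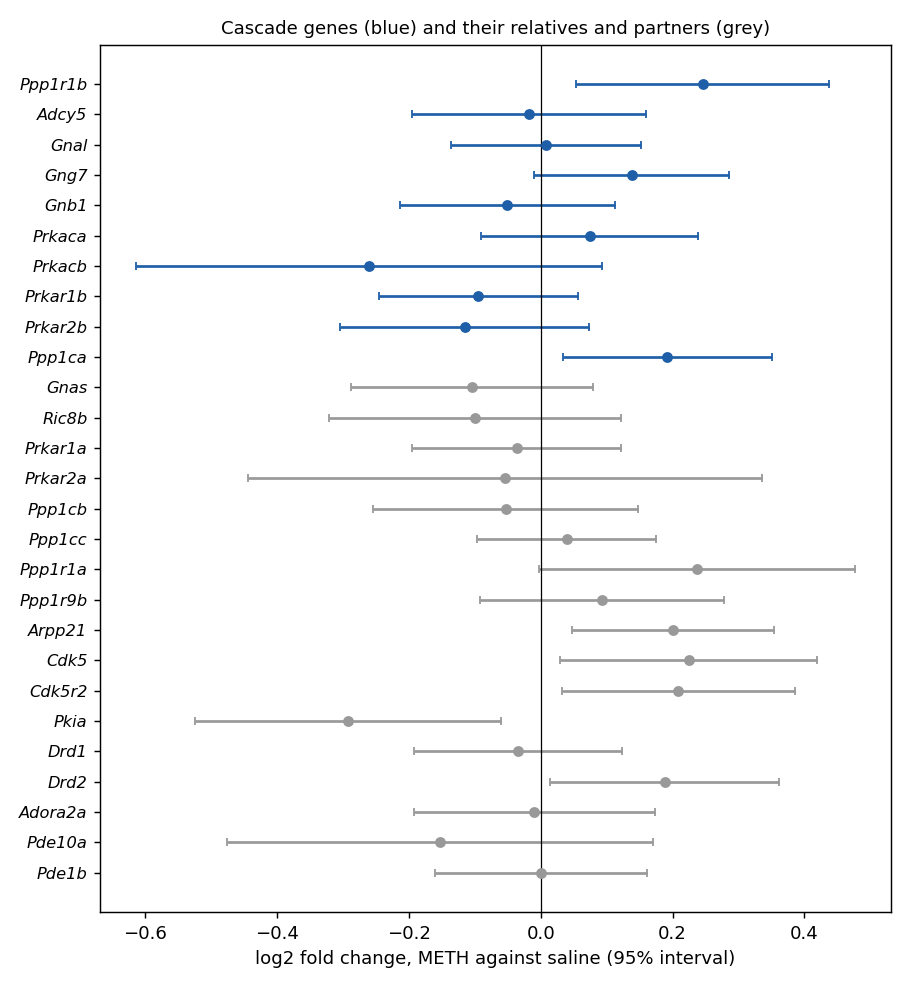
Log2 fold change of METH against saline rats (horizontal axis) with its 95% interval from edgeR's quasi-likelihood fit, for the 10 cascade genes (blue) and 17 relatives and partners (grey, of which *Cdk5r2* and *Pkia* come from the lists and *Actb* is not shown). The intervals of *Ppp1r1b* (0.05 to 0.44) and *Ppp1ca* (0.03 to 0.35) lie above 0, the other 8 cascade genes have intervals that hold 0, and *Prkacb* has the widest (-0.61 to 0.09).

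The subunits of protein kinase A had log2 fold changes between -0.26 and 0.07. *Prkaca*, the alpha catalytic subunit, was at 186, 170, 175 and 166 CPM in saline rats 1 to 4 and at 165, 183, 195 and 191 CPM in METH rats 1 to 4. METH rat 1 was the lowest of all 8 and METH rat 3 the highest, so the METH rats spanned the saline rats. The fitted log2 fold change was 0.07 (SE 0.08, 95% interval -0.09 to 0.24, edgeR quasi-likelihood FDR 0.741), and it was -0.011 relative to projection neuron markers.

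*Prkacb*, the beta catalytic subunit, was the most variable gene of the cascade. Its level was 92.3, 108, 148 and 92.9 CPM in saline rats 1 to 4 and 98.9, 113, 67.8 and 88.4 CPM in METH rats 1 to 4. Saline rat 3 was the highest and METH rat 3 the lowest, and the other 6 rats lay between 88.4 and 113 CPM. The means were 110 ± 26.1 and 92.1 ± 19.2 CPM (SD, n = 4 each), a log2 fold change of -0.26 (SE 0.16, 95% interval -0.61 to 0.09, edgeR quasi-likelihood FDR 0.557). It was -0.09 without saline rat 3 and -0.14 without METH rat 3. The log2 ratio of *Prkaca* to *Prkacb* reads was 0.69 ± 0.33 in saline rats and 1.02 ± 0.39 in METH rats (difference 0.33, two-sided exact permutation p = 0.286), and the difference was 0.16 without METH rat 3.

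Of the regulatory subunits, *Prkar1b*, a form made mainly in neurons, was at 513, 464, 507 and 452 CPM in saline rats 1 to 4 and at 443, 434, 466 and 471 CPM in METH rats 1 to 4. Saline rats 1 and 3 were above all METH rats, and saline rats 2 and 4 were among them. The log2 fold change was -0.09 (SE 0.07, 95% interval -0.25 to 0.06, edgeR quasi-likelihood FDR 0.628). *Prkar2b*, a regulatory subunit abundant in brain and fat, was at 244, 192, 230 and 215 CPM in saline rats 1 to 4 and at 212, 212, 182 and 208 CPM in METH rats 1 to 4. METH rat 3 was the lowest of all 8 and saline rat 1 the highest, and saline rat 2 lay below the other 3 METH rats. The log2 fold change was -0.12 (SE 0.09, 95% interval -0.30 to 0.07, edgeR quasi-likelihood FDR 0.634), or -0.06 without METH rat 3 or without saline rat 1, and the log2 ratio of *Prkar1b* to *Prkar2b* reads was 1.14 ± 0.10 in saline rats and 1.16 ± 0.15 in METH rats (difference 0.02, two-sided exact permutation p = 0.83).

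The regulatory subunits made in most tissues were not called either: *Prkar1a* had a log2 fold change of -0.04 (95% interval -0.19 to 0.12) and *Prkar2a* of -0.05 (95% interval -0.44 to 0.34). Among 6 other kinase subunits and inhibitors, *Pkia*, a peptide inhibitor of the catalytic subunits, had the lowest p (143 ± 18.5 and 117 ± 14.0 CPM, log2 fold change -0.29, edgeR quasi-likelihood FDR 0.341), followed by *Prkx* (0.14). Of 11 A-kinase anchoring proteins, which tether the regulatory subunits, 8 were lower in the mean and the median log2 fold change was -0.17, against -0.0055 over all genes, but none was called. The groups did not overlap for 2 of the 11, beside 6.39% of all genes: *Akap13* (25.6 ± 2.79 and 21.5 ± 1.42 CPM, log2 fold change -0.25, edgeR quasi-likelihood FDR 0.416) and *Akap12* (19.9 ± 1.81 and 17.3 ± 0.96 CPM, -0.20, edgeR quasi-likelihood FDR 0.505). *Akap2*, with the next lowest p after *Akap13*, had a log2 fold change of -0.17.

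**Figure D3:**
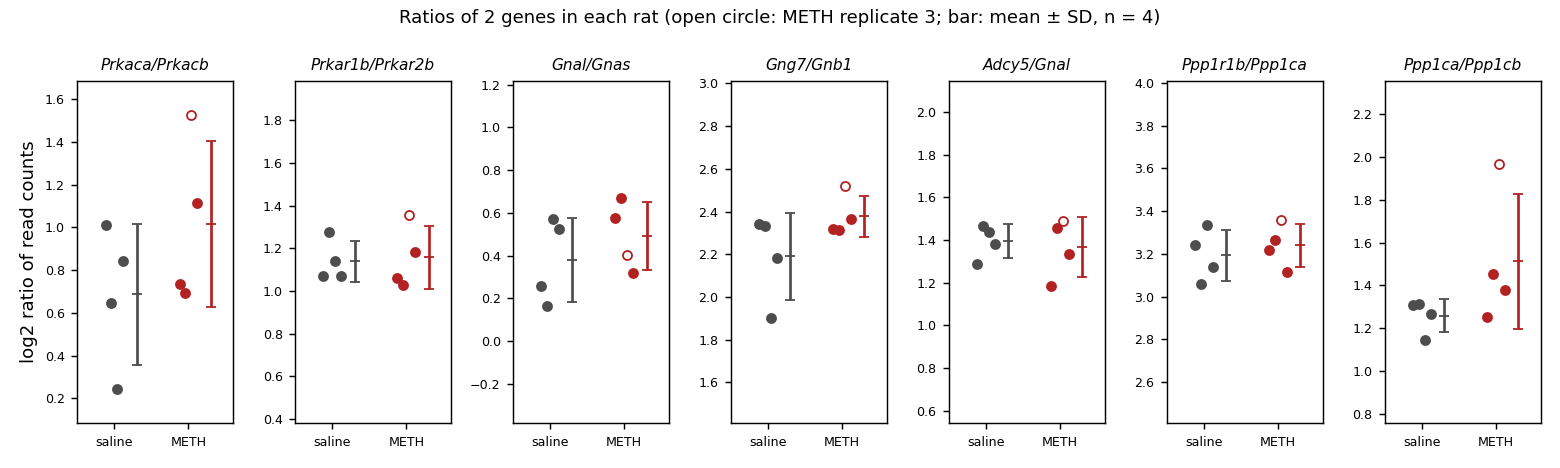
Log2 ratio of the read counts of 7 pairs of genes in each rat (vertical axes, each spanning the same range but not starting at 0), with mean and SD, saline rats in grey, METH rats in red and METH rat 3 as an open circle. The groups overlap for all 7 ratios, and the highest *Prkaca*/*Prkacb*, *Prkar1b*/*Prkar2b*, *Gng7*/*Gnb1*, *Adcy5*/*Gnal*, *Ppp1r1b*/*Ppp1ca* and *Ppp1ca*/*Ppp1cb* values are those of METH rat 3.

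For all 7 ratios the groups overlapped. With 4 rats against 4 the smallest exact permutation p is 0.0286, so after adjustment over 7 ratios no single ratio could have passed 0.05, and the test does not show that the ratios were alike. The size of such a ratio depends on the lengths of both transcripts, so only its difference between groups was read. Among the rats, 2 accounted for most of the extreme values of the cascade: METH rat 3 was the highest or the lowest of the 8 for 7 of the 10 genes and saline rat 3 for 6. *Gng7* and *Ppp1ca* were highest in METH rat 3 and lowest in saline rat 3, and *Gnb1* and *Prkacb* were the other way round. These rats are also the ends of the first principal component over all genes, at 39.5 and -24.6. Without METH rat 3, none of the 10 genes was called, and 1, *Ppp1r1b*, had an unadjusted p below 0.05 in edgeR's quasi-likelihood test.

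**Figure D4:**
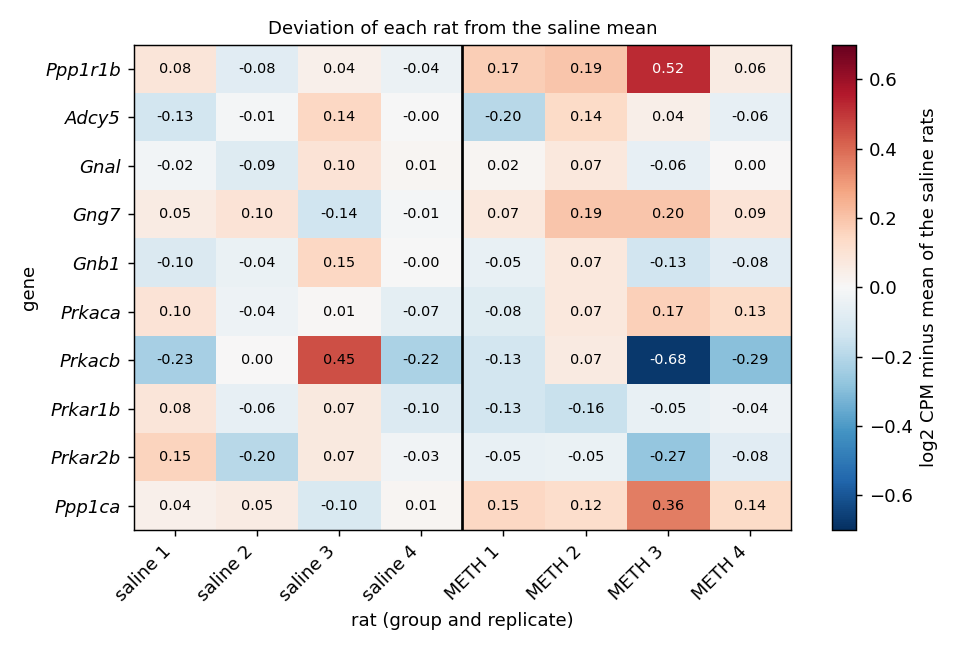
Deviation of log2 CPM in each rat from the mean of the saline rats, for the 10 cascade genes (rows) and the 8 rats (columns, saline left of the line). METH rat 3 holds the largest deviations, 0.52 for *Ppp1r1b* and -0.68 for *Prkacb*, and saline rat 3 has 0.45 for *Prkacb*.

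Within the groups, the genes did not vary as 1 block. Over the 45 pairs of genes, Pearson's r of the deviations from the group means (8 rats) ranged from -0.86 to 0.89 with a median of 0.01. It was above 0.5 for 8 pairs and below -0.5 for 7, and in none did the Benjamini-Hochberg adjusted permutation p over the 45 pairs pass 0.05. The deviations sum to 0 within each group and so are not freely exchangeable between rats, which makes these permutation p-values approximate. The highest r was that of *Gnb1* and *Prkacb* (0.89, permutation p = 0.00342, adjusted 0.0960), and it was 0.61 without saline rat 3 and METH rat 2. *Gnal* had r = -0.82 with *Ppp1ca* (permutation p = 0.0109, adjusted 0.122) and 0.75 with *Prkacb* (permutation p = 0.0303, adjusted 0.227). These were -0.85 and 0.88 without saline rats 2 and 3. *Gnal* and *Gnb1*, subunits of 1 G protein, had r = 0.88 (permutation p = 0.00640, adjusted 0.0960) and Spearman's rho = 0.90 (permutation p = 0.00456, adjusted 0.163), and r was 0.92 without saline rats 2 and 3. *Gng7*, of the same G protein, went the other way: its r was -0.70 with *Gnal* (permutation p = 0.0538, adjusted 0.251) and -0.53 with *Gnb1* (permutation p = 0.179, adjusted 0.545). The matching rho were -0.79 (permutation p = 0.0279, adjusted 0.180) and -0.69 (permutation p = 0.0694, adjusted 0.347). Without the 2 rats farthest from the median, r was -0.15 (saline rats 2 and 3 left out) and -0.08 (saline rat 3 and METH rat 1 left out), so both relations rest on those rats. *Prkacb* and *Ppp1ca* had r = -0.86 (permutation p = 0.00501, adjusted 0.0960) and rho = -0.81 (permutation p = 0.0218, adjusted 0.163), and r was -0.69 without rat 3 of each group. *Ppp1r1b* and *Ppp1ca* had r = 0.68 (permutation p = 0.0669, adjusted 0.251) and rho = 0.29 (permutation p = 0.501, adjusted 0.683). Without METH rats 3 and 4 that r was -0.09, so the relation rests on those rats.

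The transcripts whose log2 CPM over the 8 rats was most like that of *Ppp1r1b* were *Becn1* (Pearson's r = 0.98), *Cops7a* (0.97), *Scamp3* (0.97), *Sh3gl1* (0.97) and *B9d2* (0.97). They are the top 5 of all tested genes by r, so no p is given. Each was highest in METH rat 3, and r fell to between 0.89 and 0.92 without it.

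Further phosphoproteins, enzymes and effectors around DARPP-32 were read from lists. The lists had been chosen for their place in the pathway, with earlier results of these data known. Of 4 other cAMP-regulated phosphoproteins of the striatum, all 4 were higher in the mean and none was called. *Arpp21*, which encodes a phosphoprotein enriched in the same neurons, was at 1964, 1700, 1706 and 1983 CPM in saline rats 1 to 4 and at 2124, 2098, 2039 and 2188 CPM in METH rats 1 to 4. Every METH rat was above every saline rat, and METH rat 3 was the lowest of its group. *Arpp21* was the only gene of the 4 whose groups did not overlap, beside 6.39% of all genes. Its log2 fold change was 0.20 (SE 0.07, 95% interval 0.05 to 0.35, edgeR quasi-likelihood FDR 0.316), and it was 0.22 without METH rat 3. *Rap1gap* was next in that list, with a log2 fold change of 0.09.

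Of 17 kinases and phosphatases known to act on DARPP-32, none was called and the median log2 fold change was 0.01. The lowest p belonged to *Cdk5*, the kinase that turns DARPP-32 into an inhibitor of protein kinase A, and to *Cdk5r2*, one of its activators. *Cdk5* had 84.4 ± 8.11 and 98.6 ± 8.82 CPM (log2 fold change 0.22, edgeR quasi-likelihood FDR 0.391). *Cdk5r2* had 713 ± 22.1 and 824 ± 95 CPM (0.21, edgeR quasi-likelihood FDR 0.377, and 0.13 without METH rat 3). Of 16 phosphodiesterases, which break down cyclic nucleotides, 4 had an unadjusted p below 0.05 in edgeR's quasi-likelihood test, beside 11.1% of all genes, and none was called. *Pde3b* had the lowest p (19.2 ± 1.85 and 14.8 ± 1.5 CPM, log2 fold change -0.37, edgeR quasi-likelihood FDR 0.268). It alone of the 16 did not overlap between groups, beside 6.39% of all genes. *Pde1a* was next in p (-0.98, edgeR quasi-likelihood FDR 0.298, and -0.58 without saline rat 3). The other 2 were higher in METH rats, *Pde4c* (1.85 ± 0.33 and 3.18 ± 1.22 CPM, log2 fold change 0.78, edgeR quasi-likelihood FDR 0.392) and *Pde2a* (895 ± 52.1 and 992 ± 30.2 CPM, 0.15, edgeR quasi-likelihood FDR 0.430). The striatal forms *Pde10a* (-0.15, 95% interval -0.47 to 0.17, and -0.01 without saline rat 3) and *Pde1b* (0.00047, 95% interval -0.16 to 0.16) were not called. Of 8 other cAMP effectors, the channel gene *Hcn2* (0.22, and 0.13 without METH rat 3) and the exchange factor gene *Rapgef3* (0.20) had the lowest p, and none of the 8 was called.

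Over the 10 lists of cascade components, regulators and effectors, 0 of 108 tested genes were called. An unadjusted p below 0.05 in edgeR's quasi-likelihood test was found for 14 of them (13.0%), beside 11.1% of all genes. The list of transcripts known to be induced through cAMP and calcium differed. Of 12 tested, 10 were called higher in METH rats, beside 0.449% of all genes, and none was called lower. In the mean, 11 were higher and 1, *Nr4a2*, was lower. This list, like the others, was chosen with earlier results of these data known, so the share is a description and not a test. Whether the cascade induced these transcripts was not tested. The largest log2 fold changes were those of the transcription factor genes *Nr4a3* (2.75), *Nr4a1* (1.91) and *Fos* (1.70, edgeR quasi-likelihood FDR 0.0473) and of the synaptic gene *Arc* (1.80). *Junb* (1.5), *Fosb* (1.26), *Egr1* (1.02), *Nptx2* (0.83), *Per1* (0.74) and *Crem* (0.60) were the others that were called. With 1 rat left out, *Fos* lost its call in 6 of 8 fits (all but those without saline rat 1 or METH rat 2), *Crem* without rat 4 of either group, and *Nptx2* without saline rat 2 or METH rat 3. In the robust fit *Fos*, *Nr4a1* and *Arc* were not called. *Fos* was also not called with total counts, and *Crem* was not with the rat number as a block or relative to *Actb* or to projection neuron markers. Saline rat 1, which had the highest cortical marker sum, also had the highest saline level of *Fos* (21.1 CPM, against 5.36 to 8.20 in the other saline rats), *Nr4a1* (147, against 45.4 to 65.3), *Arc* (228, against 75.8 to 116) and *Junb* (258, against 145 to 158). Without that rat the log2 fold changes were 2.26, 2.38, 2.22 and 1.73, in that order. *Sik1* (0.57, edgeR quasi-likelihood FDR 0.314) and *Nr4a2* (-1.12, edgeR quasi-likelihood FDR 0.523, with saline rat 1 at 11 CPM and the other 7 rats at 0.685 to 2.48 CPM) were not called. *Actb*, a common reference gene, had a log2 fold change of 0.02 (95% interval -0.12 to 0.15).

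**Figure D5:**
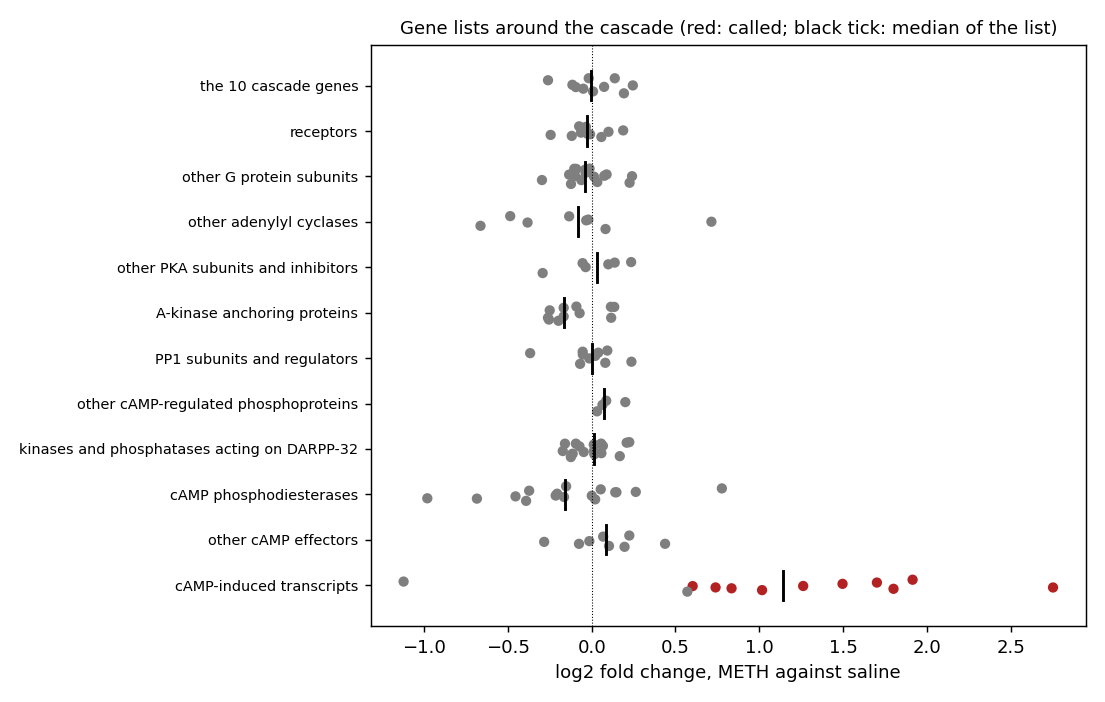
Log2 fold change of METH against saline rats (horizontal axis) of each tested gene in the cascade and in 11 lists around it, with called genes in red, other genes in grey and the median of each list as a black tick. The called genes all lie in the list of cAMP-induced transcripts (10 of 12, median 1.14), and the medians of the other lists lie between -0.17 and 0.09.

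Promoter sequences were read for the cascade and for the induced transcripts, because the factor CREB, which protein kinase A activates, binds the cAMP response element TGACGTCA and the shorter motif TGACG, which is part of the full element and reads CGTCA on the other strand. RefSeq windows from 250 bases before to 50 after the start, in the assembly GRCr8, were at hand for 9 of the 10 cascade genes. None was given for *Ppp1r1b*. The full element was in the window of 0 of the 9 and of 2.00% of all genes with a window. The shorter motif was in 2 of the 9, *Prkaca* (193 and 79 bases upstream) and *Prkacb* (25 bases downstream), and in 23.0% of all genes and 32.2% of the tested genes. Among the induced transcripts that were called, 7 had a window, 5 of those held the shorter motif, and *Crem* alone held the full element. *Fos*, *Nr4a3* and *Arc* had no entry.

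The stretches below show, with motif letters in capitals, the cascade promoter with 2 matches (*Prkaca*), that of the gene whose groups did not overlap and which has no match (*Ppp1ca*), and 2 induced transcripts for comparison. They run 5′ to 3′ on the strand of the gene, from GRCr8 chr19:41083250-41083399 (minus strand), chr1:210914366-210914515 (plus), chr17:58984707-58984766 (plus) and chr7:134260028-134260097 (plus), all upstream of the start.
Prkaca: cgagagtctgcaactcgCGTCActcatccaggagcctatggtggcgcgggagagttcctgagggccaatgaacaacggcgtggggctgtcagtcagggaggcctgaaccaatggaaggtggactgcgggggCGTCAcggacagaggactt
Ppp1ca: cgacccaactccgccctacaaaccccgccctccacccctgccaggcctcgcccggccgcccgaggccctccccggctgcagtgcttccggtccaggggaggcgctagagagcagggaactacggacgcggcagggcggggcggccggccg
Crem: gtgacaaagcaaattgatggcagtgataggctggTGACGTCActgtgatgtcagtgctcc
Nr4a1: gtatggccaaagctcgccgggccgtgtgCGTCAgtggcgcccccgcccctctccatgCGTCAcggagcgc
*Crem* holds the full element 56 bases upstream of this start, and *Nr4a1* holds the shorter motif 82 and 53 bases upstream. Outside the stretch shown, *Nr4a1* also holds the shorter motif 246 and 226 bases upstream. Another *Crem* window holds the full element 35 bases upstream and 39 bases downstream, and another holds only the shorter motif. The windows of *Fosb* and *Per1*, both called, hold no match. The windows of the cascade were rich in G and C, with a median of 69.7% (47.7% to 79.0%) against 61.0% over the windows of tested genes. A match is a description of letters in these windows and not evidence of binding.

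Some cascade genes share their locus with another gene in the RefSeq annotation, and the strand setting of the read counting is not given in the sources used here. *Gnal* overlaps *Chmp1b* (24.4 ± 3.31 and 23.1 ± 3.39 CPM, log2 fold change -0.08) and *Prkar1b* overlaps *Dnaaf5* (19.9 ± 1.58 and 19.5 ± 1.93 CPM, -0.03), neither of which was called. *Prkaca* overlaps *Smim46* and *Ppp1ca* overlaps *Rad9a*, neither of which is in the table of genes under that name. For these 4 genes, whether some reads of the neighbour were counted as their own was not tested.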

How the data were processed

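Per the submitters' processing notes and the study's methods, Cutadapt 1.18 was used for trimming, STAR 2.7.0e for alignment to rn6 and featureCounts (Subread 1.6.4) for counting. The authors deposited raw read counts per gene, 1 column per rat, without pooling. The annotation used and the treatment of multiply mapped reads are not given in the sources used here. From these counts, all values were computed with R 4.3.3 and edgeR 4.0.16: filterByExpr (minimum count 10), TMM scaling and the quasi-likelihood test over 12014 genes, with Benjamini-Hochberg adjustment. Log2 CPM used a prior count of 2, and ratios 0.5 added to each count. The SE was computed from each log2 fold change and its F statistic. Intervals come from that SE and the total degrees of freedom of the fit, the residual ones plus those edgeR borrows across genes. Each library held 18135939 to 21211920 counts. The cascade genes had 1200 reads (*Prkacb* in METH rat 3) or more in every rat, so counting error was small for them. For genes with few reads, such as *Adcy10*, *Pde4c* and *Oprm1*, counting error also limits the precision.

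Named were the 10 genes, 16 fixed relatives and partners (*Actb* included), every called gene and the 2 genes with the lowest p in each list, the 5 genes most like *Ppp1r1b*, and overlapping neighbours. Genes of the marker lists, *Mbp*, *Oprm1*, *Akap12*, *Pde4c* and *Pde2a* were named after their values were seen. The genes and lists were chosen with earlier results of these data known. Not in the table were *Gng4*, *Adcy9*, *Ppp2r5d*, *Rapgef4*, Icer, *Smim46* and *Rad9a*, and *Gng11* and *Bdnf* had too few reads to test.

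Alternatives were other scalings (RLE, upper quartile, total counts, *Actb*), filters, call rules, a robust fit, the likelihood ratio test, DESeq2 1.42.0, limma-voom (limma 3.58.1), each rat left out, and the rat number as a block. The fit was tested on simulated data.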

Additional observations from a re-analysis of the deposited data

Results flagged for a closer look

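In groups of 4 rats, a value was picked out when its gap to the nearest other rat, divided by the range of the group, passed Dixon's 95% critical value for 4 samples, which chance passes in about 1 of 20 groups. Of 34 groups compared (the 2 groups of rats for each of the 10 cascade genes and 7 ratios), 2 passed, both by METH rat 3. Its *Prkar2b* level, 182 CPM, was below the other METH rats at 208 to 212 CPM, with a gap of 0.845 of the range. Its *Ppp1ca* level, 1004 CPM, was above the other METH rats at 851 to 865 CPM, with a gap of 0.905 of the range.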

How the results depend on the processing

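None of the 10 cascade genes was called under any of 22 alternatives, and the lowest FDR among them was 0.245, for *Ppp1r1b* with DESeq2. The number of called genes on the lists around them stayed between 7 (robust fit) and 10. Over all genes, calls numbered 62, 186 with DESeq2, 170 with the likelihood ratio test, 79 with every gene that had a read, and 37 to 70 with 1 rat left out. Cascade genes with an unadjusted p below 0.05 numbered 2, and 1 without METH rat 3, without saline rat 3 or relative to *Actb*, and 3 without METH rat 2 or saline rat 2. Scaling to the summed counts of 11 projection neuron markers was chosen after seeing the data. It left 0 such genes and moved the median log2 fold change of the cascade to -0.0857, where that of all genes was -0.0871. With 1 rat left out, that median was -0.0421 to 0.0357.

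The rat numbers come from the labels. Same-numbered rats are different animals, and the correlation of their deviations was -0.20 to 0.04. The labels do not say what the number stands for, so the main fit treated the rats as unpaired. Whether same-numbered rats shared a batch was not tested. With the rat number as a replicate block, 0 cascade genes and 37 of all genes were called, *Crem* lost its call, and 1 cascade gene had an unadjusted p below 0.05.

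Signs turned only for values near 0, none of them called. *Gnal* turned to -0.0275 with total counts, -0.0117 relative to *Actb* and -0.0716 with the marker scaling. *Pde1b* turned to -0.00711 with the upper quartile, -0.0361 with total counts, -0.0177 relative to *Actb* and -0.0801 with the marker scaling. *Actb* turned to -0.0166 with total counts and -0.0628 with the marker scaling, and is 0 relative to itself. The marker scaling also turned *Prkaca* (-0.011), *Ppp1cc* (-0.0408) and *Rap1gap* (-0.00086). With 1 rat left out, ranges that held both signs were -0.0205 to 0.0403 for *Gnal*, -0.071 to 0.0379 for *Adcy5*, -0.0465 to 0.0351 for *Pde1b*, -0.0108 to 0.0392 for *Actb*, -0.18 to 0.16 for *Prkar2a*, -0.0557 to 0.0501 for *Adora2a*, -0.0785 to 0.0050 for *Prkar1a* and -0.129 to 0.0345 for *Ppp1cb*. They were -0.0474 to 0.065 for the *Prkar1b*/*Prkar2b* ratio and -0.0696 to 0.0329 for *Adcy5*/*Gnal*.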
